A study of Caenorhabditis elegans with 2 samples.

Results

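Transfer RNA (tRNA) genes of Caenorhabditis elegans were examined for candidate binding regions of MBF-1, a transcriptional coactivator of the multiprotein bridging factor family. The regions were chosen by position alone: a pooled candidate region counted when its summit lay within 500 bp of the annotated start of a tRNA gene. Of 29979 pooled candidate regions on the nuclear chromosomes, 321 met this rule, and they lay at 325 of the 612 nuclear tRNA genes. They are called tRNA-start regions here. The name gives their position only: 84 summits lay inside a tRNA gene, and 107 of the 321 were nearer to the start of another gene. The signal of the regions played no part in the choice, except that a position had to be in the candidate list at all. Candidate lists hold background by design, so presence in them was not read as binding.

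The data are ChIP-seq of whole L2 larvae of mixed sex from strain OP427. This strain carries the unc-119(ed3) III mutation and the transgene insertion wgIs427, and its MBF-1 bears GFP-FLAG at the C terminus. There was 1 group of 2 biological replicates, both from this 1 transgenic line, and no comparison group was analysed here. Replicate 1 had 19112 nuclear candidate regions and replicate 2 had 23196, and 111 were in the list kept after thresholding on IDR (irreproducible discovery rate), which scores how alike regions rank in the replicates. Signals are the authors' own values per region, with a nuclear median of 20.5 and a maximum of 594 in the pooled list. The read depth is unknown.

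RNA polymerase III transcribes tRNA genes from promoters inside the genes. The A box lies near the 5′ end of the transcribed sequence and the B box near its 3′ end, and transcription factor IIIC binds both before it recruits transcription factor IIIB upstream of the start. Transcription ends at a run of T after the gene. In C. elegans tRNA genes occur in many copies, often with identical sequence, and the X chromosome holds a large share of them. MBF1 proteins are known as bridging factors between DNA-binding activators and the TATA-binding protein, which is also a subunit of transcription factor IIIB.

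The annotated genes carry these elements in most cases. The A box was searched as the pattern TRGYNNANNNG, where R is A or G, Y is C or T and N is any base. A match was found in the first 30 bases of 593 of the 612 genes. The B box core GTTCGANNC was in the last 40 bases of 441, and TTTT within 40 bp after 605. The sequences shown first belong to some of the tRNA genes at the strongest regions, without M02F4.t1 and M02F4.t2, and to a strong leucine gene. They show the matches to the promoter elements in these genes, which need not lie inside the regions. Each is the transcribed-sense strand of the gene in the reference, read 5′ to 3′, and comes from RefSeq, WBcel235. Capitals mark the first match to the A box pattern and to the B box core. The A box match starts at base 16 in the serine gene C53C7.t1 and at base 20 in the serine gene F42A10.t2. In the other genes shown it starts at base 8, so the serine matches need not be the A box itself.

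C18A11.t2 (tRNA-Arg, anticodon ACG, chrX:8036685-8036757, minus strand): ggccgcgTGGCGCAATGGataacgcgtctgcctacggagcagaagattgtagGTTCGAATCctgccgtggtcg

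C53C7.t1 (tRNA-Ser, anticodon AGA, chrX:13046578-13046659, plus strand): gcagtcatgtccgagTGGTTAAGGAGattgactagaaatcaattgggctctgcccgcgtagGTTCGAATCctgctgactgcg

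R04D3.t2 (tRNA-Val, anticodon TAC, chrX:13307034-13307106, plus strand): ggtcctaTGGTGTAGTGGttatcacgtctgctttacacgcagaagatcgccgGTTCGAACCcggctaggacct

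F42A10.t2 (tRNA-Ser, anticodon CGA, chrIII:6158965-6159050, plus strand): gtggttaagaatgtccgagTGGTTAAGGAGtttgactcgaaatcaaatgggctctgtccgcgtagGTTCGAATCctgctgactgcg

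T23F1.t1 (tRNA-Lys, anticodon TTT, chrV:15465086-15465158, plus strand): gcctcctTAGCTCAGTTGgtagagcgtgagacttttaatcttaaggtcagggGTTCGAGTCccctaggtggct

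T23F1.t2 (tRNA-Pro, anticodon TGG, chrV:15465225-15465296, minus strand): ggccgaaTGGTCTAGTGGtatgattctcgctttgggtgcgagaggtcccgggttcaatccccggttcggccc

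C04E7.t1 (tRNA-Leu, anticodon AAG, chrX:353255-353336, minus strand): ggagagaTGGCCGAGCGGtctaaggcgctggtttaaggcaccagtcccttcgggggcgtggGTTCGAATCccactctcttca

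F42A10.t1, the serine gene beside F42A10.t2, is identical to C53C7.t1 in all 82 bases, although they lie on chromosomes III and X. T23F1.t2 has no match to the B box core, and it is 1 of 24 identical genes.

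Of the 612 tRNA genes, 53.1% had a pooled summit within 500 bp of the start (325 genes, exact 95% interval 49.1 to 57.1%, counting error only). Among the 46278 other nuclear genes the share was 35.3%. It was 31.0% for 19973 protein-coding genes, 33.3% for 129 small nuclear RNA (snRNA) genes, 37.6% for 346 small nucleolar RNA (snoRNA) genes and 47.5% for 15363 piRNA genes. Of all nuclear bases, 27.0% lay within 500 bp of a pooled summit. The replicate lists gave the same order: 229 tRNA genes (37.4%) against 24.0% of other genes in replicate 1, and 293 (47.9%) against 28.3% in replicate 2. In both replicate lists 159 tRNA genes had a summit. No test over genes was made, since neighbouring genes share regions.

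A larger share of the tRNA genes on the X chromosome had a region. X carried 276 of the 612 tRNA genes. Of these, 178 had a region, or 64.5% (exact 95% interval 58.5 to 70.1%), against 147 of 336 on the autosomes, or 43.8% (38.4 to 49.2%). Other genes had 28.1% on X and 36.4% on the autosomes. Most of that gap came with the piRNA genes, of which 15201 of 15363 were autosomal and 47.7% of those had a region, a share above that of autosomal tRNA genes. Without piRNA genes, other genes had 28.1% on X and 29.6% on the autosomes, and protein-coding genes had 819 of 2731 on X and 5373 of 17242 on the autosomes (31.2%). Bases within 500 bp of a summit made up 29.7% of X and 26.4% of the autosomes.

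Each replicate list gave the higher share of tRNA genes on X. In replicate 1 the shares were 46.7% on X and 29.8% on the autosomes, and in replicate 2 they were 54.0% and 42.9%. Among the autosomes, the counts ran from 22 of 57 genes on II to 33 of 66 genes on I, and III, V and IV had 40.6%, 41.0% and 47.9%. Every autosome was therefore below X in the pooled list.

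**Figure D1:**
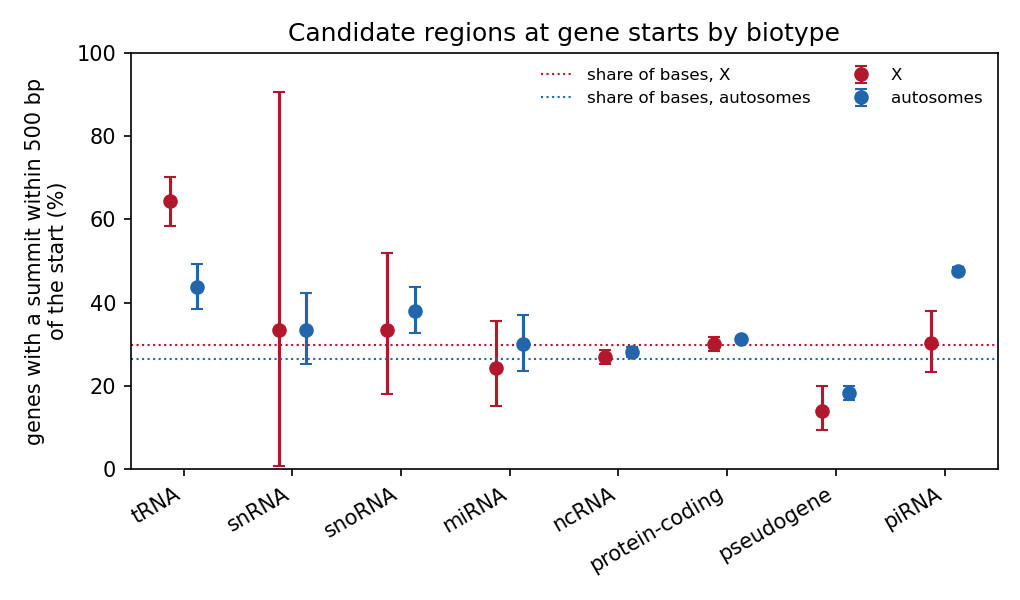
Share of genes with a pooled summit within 500 bp of their start, by biotype, on X (red) and on the autosomes (blue). Bars are exact 95% intervals of the shares and dotted lines the share of all bases within 500 bp of a summit. tRNA genes on X stand at 64.5% and on the autosomes at 43.8%, while protein-coding genes on the autosomes are at 31.2%.

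By region, 175 of the 321 tRNA-start regions were on X. This is 54.5% (exact 95% interval 48.9 to 60.1%), where 45.1% of tRNA genes and 19.5% of all nuclear pooled regions were on X. Among the autosomes, chromosome IV held 39, I 33, V 30, III 24 and II 20.

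The tRNA-start regions stood high in the pooled ranking. Their median signal was 24.8 (quartiles 19.4 and 33.2), against 20.5 over all nuclear regions, which placed the median member at the 74.8th percentile. Of the 321, 101 were among the 10% of regions with the highest signal, or 31.5% (exact 95% interval 26.4 to 36.9%), where 10% of all nuclear regions are. Among the 300 regions of highest signal, 30 were tRNA-start regions, and 24 of these were on X. Over the whole list tRNA-start regions made up 321 of 29979. The lower end was filled as well: 19 lay in the lowest 10% of the ranking.

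On X the median signal was 26.6, at the 81.4th percentile, and on the autosomes it was 23.5, at the 69.0th percentile. Over all regions the X and autosomal medians were at the 51.6th and 49.7th percentile. Of the X members 37.1% were in the top 10%, and of the autosomal members 24.7%. The X-minus-autosome difference of medians was 12.4 percentile points in the pooled list. It was 25.4 in the list of replicate 1 and 20.9 in that of replicate 2. Among tRNA genes with no identical copy it was 1.48.

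**Figure D2:**
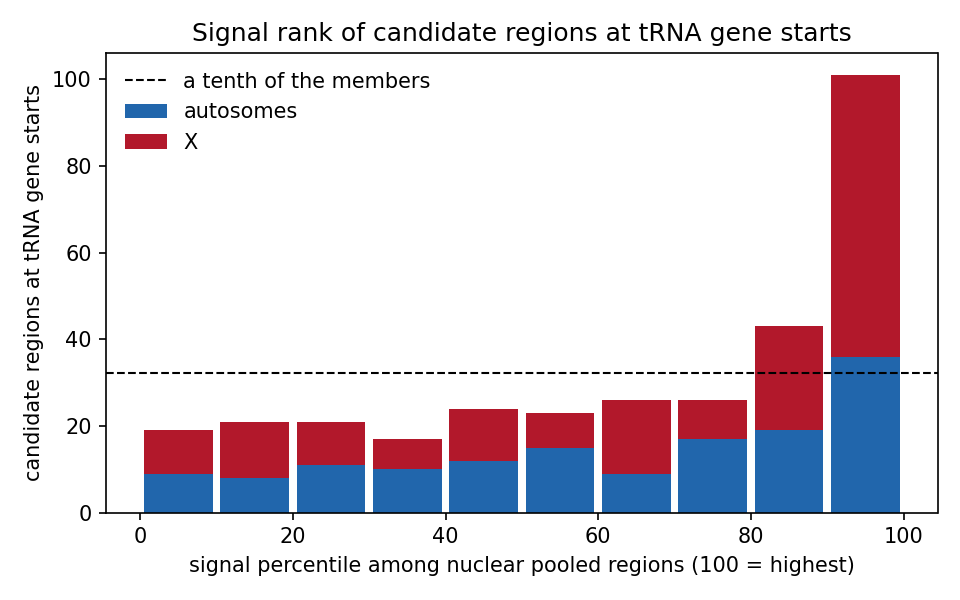
Number of tRNA-start regions per 10% of the signal ranking of nuclear pooled regions, with X in red stacked on the autosomes in blue. The dashed line is the number each bar would hold if the regions were spread evenly. The highest 10% hold 101 of the 321.

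Support in the replicates was more frequent than over all regions. A region overlapped by at least 1 bp in both replicate lists was found for 161 of the 321, or 50.2% (exact 95% interval 44.6 to 55.8%), against 25.2% of all nuclear pooled regions. Overlapping members can share a replicate region, which the interval does not allow for. With overlapping regions counted once, support was 45.1%, against 23.2% of all regions. Replicate 1 had a region at 209 of the 321 and replicate 2 at 243. Regions at starts of other small RNA genes had similar shares. At snoRNA starts 49.6% of 141 regions were in both lists and 31.2% in the top 10%, and at snRNA starts 45.8% and 27.1% of 48. Of the tRNA-start regions, 48 were in replicate 1 alone, 82 in replicate 2 alone, and 30 in neither list. Because support rises with signal in the whole list, it was also read within bands of the ranking. In the top 1%, all 30 tRNA-start regions were supported in both lists, against 99.3% of other regions. Between the top 10 and 20% the share was 51.2% of 43, against 53.3% of other regions, and between 5 and 10% it was 87.5% of 32 against 72.4%. Between 2 and 5% it was lower than in other regions, at 78.3% of 23 against 83.8%. Between 20 and 50% it ran from 26.1 to 46.2%, against 16 to 35.1%.

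On X, 57.7% of the members had support in both lists and on the autosomes 41.1%, where the shares over all X and autosomal regions were 26.2% and 25%. Over the 161 regions with support in both, the rank correlation (Spearman's rho) between replicate 1 and 2 signals was 0.352 across regions. It was 0.191 over all 7560 nuclear regions with such support. These regions share libraries and some share a replicate region, so rho is given as a description only. In replicate 1 their median percentile was 83.6 and in replicate 2 it was 85.2. The authors' q values, on a −log10 scale, had a median of 0.126 at tRNA-start regions in replicate 1 and 0.121 in replicate 2, against 0.0667 and 0.0638 over all regions. The highest values at these regions were 0.921 and 2.05, which are also the highest in the whole replicate lists.

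**Figure D3:**
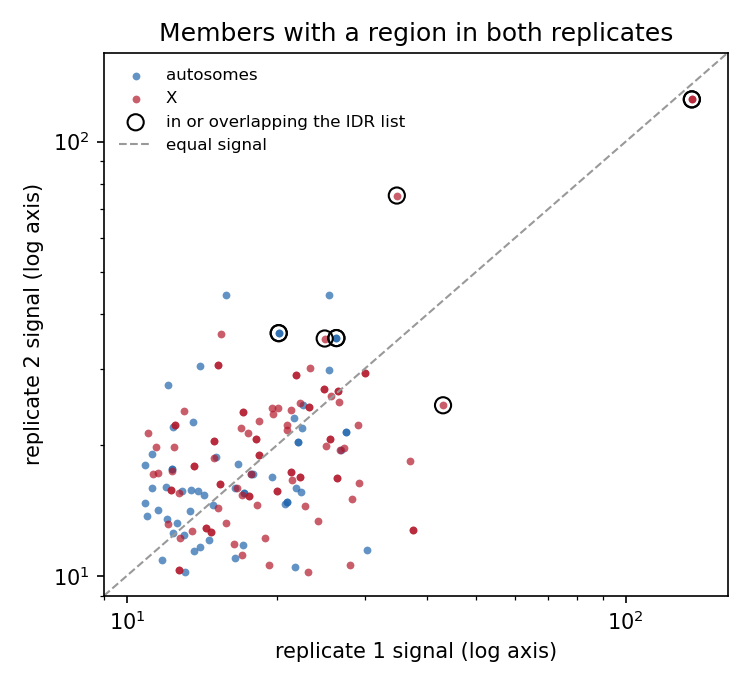
Signal in replicate 1 against replicate 2 for the 161 tRNA-start regions with an overlapping region in both lists, on log axes, X in red and autosomes in blue. Circles mark regions in or overlapping the IDR list and the dashed line marks equal signal. The overlapping pair at C18A11.t2 shares the point at the top right.

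In the IDR list itself 7 tRNA-start regions were found, 5 on X and 2 on autosomes, and 2 more overlapped an IDR peak. Of all nuclear pooled regions 135, or 0.45%, were in or overlapped the list. At snRNA starts 7 of 48 regions did, and at snoRNA starts 4 of 141. The lowest signal in the IDR list was 55.6, so its members also stand at the top of the pooled ranking.

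The highest signal was at the arginine gene C18A11.t2 on X. The region chrX:8036318-8036476 had a pooled signal of 253, rank 4 of the nuclear list, with 136 in replicate 1 and 125 in replicate 2. Its summit lay 383 bp downstream of the tRNA start and outside the gene, and it was nearer, at 300 bp, to the annotated start of C18A11.13, an ncRNA gene. An overlapping region, chrX:8036383-8036762, had a pooled signal of 112 with its summit 184 bp from the start. Both overlapped the same replicate regions, so the replicate values are shared. The nearest protein-coding start, that of xol-1, was 4939 bp from the first summit. The sequence of the first region is shown because it holds no match to the A box pattern or the B box core. The capitals mark TCGCGCAGG, once on each strand, a match picked out after the sequence was seen.

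Region at C18A11.t2 (chrX:8036318-8036476, plus strand): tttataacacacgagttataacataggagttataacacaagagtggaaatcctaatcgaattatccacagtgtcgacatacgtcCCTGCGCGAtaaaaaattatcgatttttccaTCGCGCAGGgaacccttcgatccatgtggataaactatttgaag

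At the other IDR peaks the summits lay close to tRNA genes, and at some also close to the starts of other genes. The region chrX:3035993-3036372 had a pooled signal of 106, with 34.8 in replicate 1 and 75.1 in replicate 2. Its summit was 19 bp inside the glycine gene M02F4.t1, which is divergent from the glutamate gene M02F4.t2. It ranked high in both replicates, at the 99.6th and 99.9th percentile. The region chrX:13046316-13046695 spanned the divergent serine genes C53C7.t2 and C53C7.t1, with its summit between them. The genes match in 79 of 82 bases. Its pooled signal was 69.5, with 43.0 in replicate 1 and 24.7 in replicate 2, and the summit was 59 bp upstream of the nearer start. The nearest protein-coding start, that of C53C7.3, was 2052 bp from the summit.

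The region chrX:13306949-13307328 at the valine gene R04D3.t2 had a pooled signal of 65.7, with 24.9 in replicate 1 and 35.2 in replicate 2, and its summit lay 105 bp from the start. On chromosome III, chrIII:6158619-6158998 at the serine genes F42A10.t1 and F42A10.t2 had 61.0 in the pooled list, with 26.3 in replicate 1 and 35.3 in replicate 2. Its summit was 31 bp inside the first gene. A neighbouring region that overlapped this peak had a pooled signal of 16.7 only, at the 14.7th percentile. The start of the protein-coding gene nfm-1 lay 644 bp from the summit of the peak and 445 bp from that of the neighbour. On chromosome V, chrV:15464995-15465374 at the lysine gene T23F1.t1 and the proline gene T23F1.t2 had 57.6, with 20.2 in replicate 1 and 36.2 in replicate 2. The summit of this peak was 99 bp from the start of T23F1.t1 but 5 bp from that of the ncRNA gene T23F1.9. The start of the protein-coding gene pqn-71 was 492 bp away. A second region there, which overlapped the peak, had 42.2, and its summit was 260 bp from the start of pqn-71. The replicate regions of this second region are those of the peak.

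The T23F1 genes converge, and the stretch between their starts is shown because it holds both genes and the T runs between them. Capitals mark the genes, and the proline gene is read from the other strand.

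T23F1.t1 to T23F1.t2 (chrV:15465086-15465296, plus strand): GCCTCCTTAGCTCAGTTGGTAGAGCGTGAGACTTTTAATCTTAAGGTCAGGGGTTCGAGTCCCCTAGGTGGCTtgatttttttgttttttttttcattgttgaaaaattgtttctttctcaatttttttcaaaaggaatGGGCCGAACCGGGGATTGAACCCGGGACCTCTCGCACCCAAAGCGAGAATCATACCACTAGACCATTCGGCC

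After the IDR list the next regions on X were close to each other in signal. The phenylalanine gene T28B4.t1 had a pooled signal of 54.6, with 23.3 in replicate 1 and 30.1 in replicate 2. The leucine gene C04E7.t1 had 52.9, with 21.8 and 29.0, and the start of the protein-coding gene sor-3 lay 231 bp from that summit. The alanine genes F15G9.t1 and F15G9.t2 had 52.3, with 29.1 and 22.3, the lysine gene C33G3.t2 had 52.3, with 26.6 and 25.2, and the threonine gene T25B6.t2 had 52.2, with 23.2 and 24.4. C33G3.t2 is identical to T23F1.t1. The replicates give no common order for all 5 of these regions, although some pairs keep their order in both.

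On the autosomes the next regions were at M01E5.t1 (lysine, chromosome I), with 52.5 pooled, then 25.4 and 29.7 in replicates 1 and 2, and T21B4.t1 (isoleucine, chromosome II), with 50.7, 26.8 and 19.4. The summit at M01E5.t1 was nearer, at 58 bp, to the spliced leader RNA gene sls-2.9, a snRNA gene transcribed by RNA polymerase II. Y54G2A.t3 (aspartate, chromosome IV) had 49.2, with 27.5 and 21.4, and F15D3.t1 (lysine, chromosome I) had 47.5, with 22.5 and 24.8. The threonine gene W09G10.t3 and the lysine gene W09G10.t2 on chromosome II had 45.4 in the pooled list, but 30.3 in replicate 1 and 11.5 in replicate 2. F02H6.t1 (proline, chromosome IV) had 43.6, with 22.1 and 20.4, and F58D5.t1 (valine, chromosome I) had 41.3, with 22.4 and 21.9. Apart from W09G10 these autosomal regions were above the 91st percentile in both replicates. Protein-coding starts lay within 500 bp of the summits at T21B4.t1 (col-85, 294 bp), Y54G2A.t3 (Y54G2A.45, 241 bp) and W09G10 (clec-126, 307 bp).

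Among members found in both replicate lists, the largest differences in rank were at regions with pooled signals from 26.0 to 32.4. Members found in 1 list only could not be ranked this way. They include Y119D3B.t1, with 39.6 pooled and 27.2 in replicate 1 alone, and Y97E10C.t1, with 38.2 pooled and 35.4 in replicate 2 alone. Replicate 1 was higher at C16H3.t1 (valine), with a signal of 23 against 10.2 in replicate 2, at C04A11.t1 (leucine), with 28 against 10.6, and at Y105C5A.t2 (alanine), with 21.7 against 10.5. Replicate 2 was higher at T07H6.t2 (alanine), with 21.3 against 11.0, at K07A1.t1 (serine), at 18 against 10.9, and at ZK622.t1 (alanine), with 19.1 against 11.2. Values near 10 and 11 are at the floor of the replicate lists, whose lowest nuclear signals were 10.9 and 9.99.

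Summits gathered on and just around the tRNA genes. The median distance of a summit from the nearest tRNA start was 108 bp (quartiles 50 and 232 bp), 150 of the 321 were within 100 bp, and 84 lay inside the gene. Along the strand of the gene 120 summits were upstream of the start and 201 at or downstream of it. The 100 bp from the start into the gene and its 3′ flank held 102 summits, and the 100 bp upstream held 48. At the ends of the window, 15 summits lay 400 to 500 bp upstream and 10 lay 400 to 500 bp downstream.

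Signal was highest for summits within 100 bp of the start. Members within 100 bp had a median signal of 28.6, at the 86.6th percentile, those 101 to 200 bp away 23.5, at the 69.0th, and those over 200 bp away 21.6, at the 58.0th. The shares in the top 10% were 44.0%, 26.4% and 16.2%. The shares with support in both replicate lists were 56.7%, 51.4% and 39.4%, where all regions have 25.2%. The fall with distance was not steady downstream, where 29 members at 200 to 300 bp had a median percentile of 76.1 and 43 at 100 to 200 bp had 68.1. The highest member is an exception, 383 bp from its start.

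**Figure D4:**
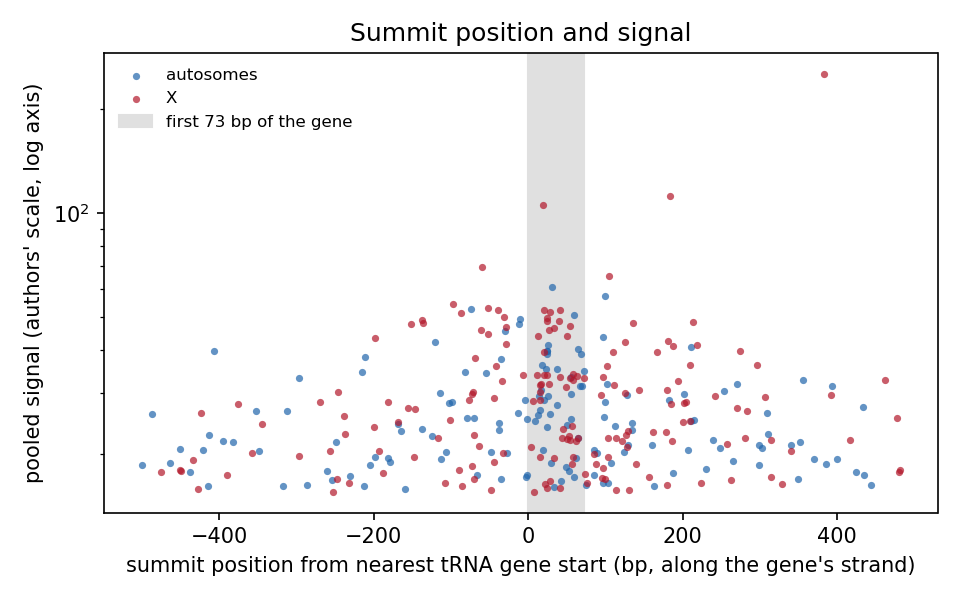
Pooled signal (log axis) against the position of the summit from the nearest tRNA gene start, along the strand of the gene, for the 321 tRNA-start regions. X is red, autosomes blue, and the grey band covers the first 73 bp of the gene. Of the summits, 150 lie within 100 bp of the start, and the highest point, at 383 bp, is the region at C18A11.t2.

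Regions at the 500 bp limit had low to moderate signals. Just inside it were regions at W02G9.t1 (500 bp, signal 18.5), Y51A2B.t1 (487 bp, 26.1) and C26G2.t1 (481 bp, 18). Just outside were regions near C06E4.t1 (505 bp, 18.7), R01H5.t1 (505 bp, 22.6) and C02B4.t1 (509 bp, 19.8).

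Many regions also lay near other genes. A tRNA start was the nearest start of any gene for 214 of the 321 (66.7%), and 102 had no other start within 500 bp. A start of a gene of biotype ncRNA, the annotation's class for short and unclassified non-coding RNAs, lay within 500 bp of 192 (59.8%), against 6.44% of all regions. A protein-coding start lay within 500 bp of 48 (15.0%), against 21% of all regions. The median percentile was 75.1 for the 102 members with no other start and 74.8 for the other 219. For the 48 with a protein-coding start it was 80.9, and for the other 273 it was 71.5. Regions at protein-coding starts without a tRNA start had a median percentile of 52.1, those at snRNA starts 66.9 and those at snoRNA starts 69.8.

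Sequence within 100 bp of the summit held a promoter element at some of the regions, and the choice of positions near tRNA genes by itself raises these shares. The B box core GTTCGANNC, searched on both strands, was in 110 of the 321 (34.3%), against 1.5% of all nuclear regions and 1.17% of windows of the same length at protein-coding starts. The A box was in 53.9%, against 17.5% and 19.4%. Members with the B box core in the window had a median percentile of 79.6 and those without 71.0. Their support in both replicates was 50.9% and 49.8%. The core was in 58.0% of members within 100 bp of the start, 31.9% at 101 to 200 bp and 0% beyond. The part of distance in the contrast of percentiles was not tested. By gene the order was the other way. Of 441 genes with a match to the core 51.2% had a region, and of 171 without a match 57.9% did. Genes without a match may hold a variant of the B box. T23F1.t2, counted among them, reads gttcaatcc, which differs from the core only in A for the second G. Median G+C was 38.3% in the members and 30.8% over all regions, and its part in the ranking was not tested.

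The genes with and without a region were compared by what they encode. Over the 20 isotypes (the amino acid a tRNA carries) with at least 8 genes, the share of genes with a region ran from 6 of 20 histidine genes to 10 of 13 cysteine genes (76.9%). Phenylalanine (35.7% of 14) and asparagine (8 of 20) were next lowest, and alanine (64.7% of 34) and glutamine and aspartate (63.0% of 27 each) next highest. The exact 95% interval of each of these 20 isotypes included the share of 53.1% over all tRNA genes. By anticodon, over 28 with at least 8 genes, Gly-GCC was lowest (4 of 15), and Ala-TGC highest (7 of 8), while the other frequent glycine anticodon, Gly-TCC, had 21 of 36. The lysine anticodons stood at 20 of 30 for CTT and 5 of 15 for TTT. The 1 selenocysteine gene had no region.

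**Figure D5:**
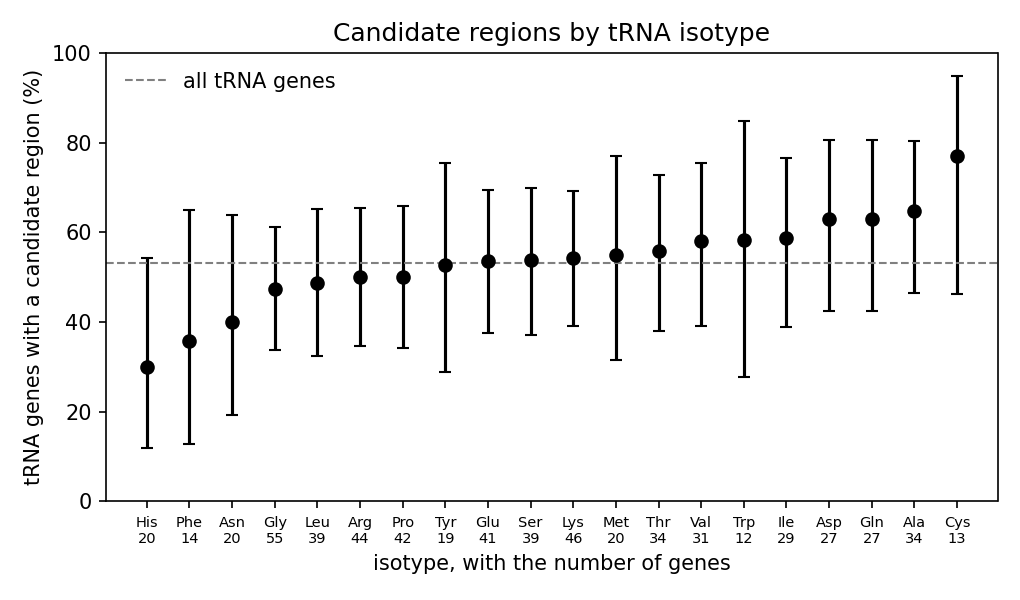
Share of tRNA genes with a candidate region by isotype, with the number of genes under each name. Bars are exact 95% intervals and the dashed line is the 53.1% over all tRNA genes. Histidine is lowest at 6 of 20 genes and cysteine highest at 76.9%.

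Copies of 1 sequence did not share 1 state. Of 32 families of 5 or more identical genes, with 402 genes in all, 31 had some genes with a region and some without. The exception was an arginine family (anticodon ACG, the sequence printed for C18A11.t2), with 10 genes, all on X, and a region at each. Its best signals ran from 18.2 to 253. In the largest family, of 29 glycine genes with anticodon TCC, all 11 genes on X had a region and 7 of 18 on autosomes did. In the proline family of T23F1.t2, the counts were 8 of 13 on X and 6 of 11 on autosomes, and in the aspartate family 8 of 10 and 6 of 11.

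Within these families 137 of 194 genes on X had a region (70.6%) and 95 of 208 on autosomes (45.7%). Of the 27 families with genes on both, the share was higher on X in 22 and lower in 5. Among the latter were the threonine genes with anticodon AGT, with 2 of 7 on X and 5 of 8 on autosomes. For methionine, 9 identical genes whose anticodon loop has C at its second base, as in animal initiator tRNA, had a region at 4, and 9 identical genes with T there had a region at 7.

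Whether reads that map to several places were kept is not given in the sources used here. Genes with no identical copy in the genome had a region in 41.4% of 140 cases, those in 2 to 5 copies in 44 of 83, and those in more than 5 copies in 57.3% of 389. With genes that lack a match to the A box pattern left out, genes with no identical copy had 46.3% of 123. This share was 56.0% of 50 on X and 39.7% of 73 on the autosomes. For 2 to 5 copies the order was the other way, with 46.9% of 32 on X and 57.1% of 49 on the autosomes. Above 5 copies the shares were 70.9% of 189 and 44.5% of 200. Of the 19 genes without a match to the A box pattern 2 had a region. The members nearest to genes with no identical copy had a median percentile of 71.5 and were supported in both lists in 43.9% of 57 cases. Those nearest to genes in more than 5 copies had 76.0 and 52.8% of 218.

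tRNA genes were often neighbours. With starts less than 2000 bp apart taken as a cluster, 269 genes formed 111 clusters, 85 of them pairs, and 343 genes stood alone. Every gene had a region in 45 clusters, none did in 33 and some did in 33. The share with a region was 50.1% for lone genes, 54.7% in pairs and 60.6% in clusters of 3 or more. On X alone it was 61.6%, 63.4% and 71.0%, and on the autosomes 43.6%, 46.6% and 36.7%. A region near several genes counts for each of them, which raises these shares. By region, 265 had 1 tRNA start within 500 bp and 56 had 2 or more. Their median percentiles were 75.1 and 70.5, while 6 of the 9 members in or overlapping the IDR list had 2 starts. The sign of this difference of medians turned in 5 of the 7 alternatives run, so no order is read from it.

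The largest clusters, all on X, differed in signal. The cluster that begins at F22F1.t9 has 8 genes in 4162 bp, of which F22F1.t9 and F22F1.t8 shared a region with a signal of 30.5 and F22F1.t7 had one at 19.6. Neither was supported in both replicate lists. Of 6 histidine genes from F28H6.t2 on, 2 shared a region at 23.1. All 5 glutamine genes from H08J11.t5 on had a region, with a best signal of 22 for 2 genes and 43.9 for 3. The cluster from K01A12.t1, of arginine and cysteine genes, had 1 region at 18.2 at 3 of 5 genes, and that from R04E5.t5, of cysteine and glycine genes, had regions at 15.5 and 16.4 that reached all 5.

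Many tRNA genes lie inside protein-coding genes. Of 322 tRNA genes outside any protein-coding gene, 59.6% had a region, and of 290 inside one, 45.9% did. On the autosomes these shares were 54.2% and 36.1%, and on X they were 63.9% and 65.6%. Inside genes, 43.1% of 167 tRNA genes on the strand of their host and 49.6% of 123 on the opposite strand had a region. Distance from protein-coding starts gave 46.3% within 500 bp, 51.5% from 501 to 2000 bp and 56.9% beyond. On X it gave 50%, 58.8% and 72.1%, and on autosomes 44.9%, 44.9% and 42.1%.

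Genes for proteins that act on tRNA were looked up in 3 lists. Of 20 cytosolic aminoacyl-tRNA synthetase genes found, 6 had a pooled summit within 500 bp of the start, of 22 genes of RNA polymerase III and its factors 8 (36.4%), and of 13 genes of tRNA processing and modification 5 (38.5%). Over all protein-coding genes the share was 31.0%. None was at an IDR peak. The highest signals were at kars-1, the lysyl-tRNA synthetase, with 34.4 pooled, then 16.8 and 24.5 in replicates 1 and 2, and at elpc-2, an Elongator subunit, with 33.8 and 23.4 in replicate 2. At rpac-19, a subunit shared by RNA polymerases I and III, the pooled signal was 31.4, and at tftc-1, a subunit of transcription factor IIIC, it was 26.6 with no region in replicate 1. With so few genes a list, these shares are descriptions only.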

How the data were processed

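ChIP-seq regions of 2 biological replicates of 1 group were used, with replicate numbers from the labels. The authors' deposited narrowPeak lists in ce11 hold a signal value per region and, in the replicate and IDR lists, a q-value on a −log10 scale. The q column of the pooled list holds values under 0 and was not used. Per the file lists in the deposited text, replicate and pooled candidate regions derive from alignments with a control alignment, and the IDR list from these lists. The sources used here name no aligner, caller, setting or IDR threshold. Since the scale of the signal is unstated, signals were compared by rank within a list. Read depth is unknown and alignments, signal tracks and ce10 lists were not used here.

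Gene starts came from Ensembl release 115 (WBcel235, the assembly of ce11) and isotypes, for 607 of 612 genes, and sequence from RefSeq. All regions ended within the reference chromosome lengths. Anticodons were read by computer for 556 genes as the triplet of a 7-base loop with at least 4 of 5 stem pairs that matched the isotype. The percentile ranks signal among nuclear regions, 100 being highest. Replicate values are the highest signal overlapping a region by at least 1 bp. Identical copies were counted in the nuclear genome on both strands. Intervals are exact Clopper-Pearson at 95%. With 1 group, no read counts and regions that share libraries and neighbours, no test was made and differences are descriptions. Assignment was tested on simulated positions (200 of 200 recovered). Python 3.11.15, NumPy, pandas 2.3.3, SciPy 1.17.1, Biopython 1.88 and Matplotlib were used.

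Members, lists and alternatives were chosen with earlier results of these data known. Named by rule were members in or overlapping the IDR list, the 10 highest on X and on autosomes, the 3 with the largest rank difference each way, the 3 nearest each side of the limit, isotypes and anticodons with at least 8 genes at the extremes, and the largest clusters. The 3 clusters of 5 genes are tied and are all named. Other families and anticodons named were chosen after their values were seen. Alternatives were other windows, each replicate list alone, the nearest start, genes without identical copies, overlapping regions counted once and other overlaps, ranks and motif windows.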

Additional observations from a re-analysis of the deposited data

How the results depend on the processing

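Of 81 values recomputed under alternatives, 36 stayed within the spread set for them, 40 moved beyond it and 5 changed sign; the causes were not tested. No paired analysis was possible because there is only 1 group of samples. With each replicate list used alone, the share of tRNA genes with a region ran from 37.4 to 47.9%, support in the other replicate list from 50.9 to 65.5% (30.8 to 36.9% of all regions, where the pooled list has 25.2%), the median percentile from 67.6 to 68.6, the share in the top 10% from 24.6 to 29.6%, the share on X from 48.4 to 57.0%, the X-minus-autosome difference from 20.9 to 25.4, the difference of regions with several tRNA starts from those with 1 from 7.73 to 19.8 (-4.58 in the pooled list) and the median distance from 122 to 124 bp. With a window of 200 bp the gene share was 35.8%, the percentile 81.1, the top 10% share 38.3%, the several-start difference 16.5 and the B box core share 49.5%. With 1000 bp these were 66.8%, 65.4, 26.3%, 9.62 and 24.7%, with support 44.2% and distance 209 bp. Where a tRNA start had to be nearest, the gene share was 36.8%, the percentile 77.4 and the distance 85.5 bp. For genes with no identical copy there were 66 regions, a gene share of 41.4%, support of 42.4%, percentile 68.9, a top 10% share of 21.2%, 2 regions in or overlapping the IDR list, an X-minus-autosome difference of 1.48, a several-start difference of 26.7, a distance of 183 bp and a B box core share of 25.8%. With overlapping regions counted once, the percentile was 76.5 and the distance 99 bp. With a larger overlap asked for (50% or more), support was 38.3%, against 17.9% of all regions. The 66 IDR peaks of highest signal were chosen with mitochondrial peaks included, so fewer than 66 of them were nuclear. In or overlapping them were 3 tRNA-start regions: the overlapping pair at C18A11.t2 and the region at M02F4.t1 and M02F4.t2. Of the tRNA-start regions, 9.35% were in the top 1%. The B box core share was 24.0% within 50 bp and 48.9% within 190 bp of the summit, against 0.767% and 2.76% of all regions. Read depth is unknown, so absence from a list is not absence of signal.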

Other observations

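The region of highest signal at a tRNA start, at C18A11.t2, holds TCGCGCAGG once on each strand within 100 bp of its summit. This sequence is contained in a motif known from the X chromosome sites that recruit the dosage compensation complex in C. elegans, and it was looked for after the region had been read. It lay within 100 bp of the summit in 1 of the 321 tRNA-start regions. Of all 29979 nuclear pooled regions, 14 held it on either strand within 100 bp of the summit, 12 of them on X, and all 12 were among the 100 X regions of highest signal. The overlapping region at C18A11.t2 with a signal of 112 also spans both matches. They lie more than 100 bp from its summit, so it is not counted. Without these overlapping regions, the highest signal at a tRNA start was 106, at M02F4.t1 and M02F4.t2. The part of such sites in the signal at other tRNA genes was not tested.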
